A study of Tetranychus urticae with 4 samples.

Results

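The expression of 4 genes read as markers of nervous tissue was followed in adult females of the spider mite Tetranychus urticae: an acetylcholinesterase (tetur19g00850), a voltage-gated sodium channel (tetur34g00970) and a pair of glutamate-gated chloride channels (tetur02g04080 and tetur10g03090). They were picked by identifier, not by a measured value, though with earlier results of these data known. They are 4 of the 18020 genes in the count table. All 4 passed the filter on low counts, which left 13278 genes to test. Their names came with that list of identifiers. The deposited files carry identifiers only, and none of these was found in the RefSeq gene table of the species, so the names were not checked against sequence here.

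RNA was sequenced from intact adult females, with 3 libraries of 100 pooled animals each, and from the dissected proterosoma of 250 pooled adult females, with 1 library. The proterosoma, or front body, bears the mouthparts. All animals were of the London strain, a laboratory strain, and the labels give no treatment, genotype or age beyond adult. The series was designed to find genes enriched in the salivary glands. An intact body contains its own front body, and no library was made from nervous tissue alone.

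In mites the central nervous system is fused into a single mass around the oesophagus, the synganglion. Nerve cells fire through voltage-gated sodium channels, and acetylcholine released at synapses is broken down by acetylcholinesterase. Glutamate-gated chloride channels are receptors of invertebrates that let chloride into a cell when glutamate binds, which dampens its activity. These proteins are well known as targets of mite-control agents: acetylcholinesterase of organophosphates and carbamates, the sodium channel of pyrethroids, and the glutamate-gated chloride channels of avermectins.

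Total counts were between 11630954 and 23647775 in the whole-body libraries and 19667380 in the proterosoma library. The 4 genes together took 1424, 819 and 805 reads in whole-body replicates 1, 2 and 3 and 1466 reads in the proterosoma library. Levels are given as CPM, a gene's count relative to the size of its library, which was adjusted by TMM (a scaling that assumes most genes do not differ) unless library size alone is named. The choice of scaling bears on all 4 genes, because the TMM factor was 0.744 for the proterosoma library and between 1.07 and 1.14 for the whole bodies. Over all genes tested, log2 folds shifted by a median of -0.57 when TMM was replaced by library size alone. Whether the replicate whole bodies were separate cultures is not stated in the labels, so the p-values cover the spread between libraries, and this may be technical in origin. The proterosoma has no replicate, and the test takes its spread from the whole bodies.

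The chloride channel tetur10g03090 rose 3.13-fold in the proterosoma over the whole body (edgeR quasi-likelihood test, adjusted p = 6.55e-05). The acetylcholinesterase and the chloride channel tetur02g04080 rose by log2 folds of 0.59 and 0.57 with TMM (edgeR adjusted p = 0.0159 and 0.00990), but lay within the whole-body range when library size alone set the scale. The sodium channel did not pass the test, at 1.15-fold with TMM (edgeR adjusted p = 0.482) and at a log2 fold of -0.36 with library size alone (edgeR adjusted p = 0.208).

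Most genes of the table differed between the body parts, and the calls among the 4 genes are read against that background. TMM assumes that most genes do not differ, so the calls that need TMM rest on an assumption open to doubt here. Of the 4 genes, 3 were called higher and 0 lower at an adjusted p under 0.05 (edgeR quasi-likelihood test), where 41.0% of all genes tested were called higher and 40.4% lower. Only tetur10g03090, 1 of 4, was called at least 2-fold higher, against 31.6% of all genes tested. Scaled by library size alone, 1 of 4 was called higher and 0 lower, against 31.2% and 52.2% of all genes tested. The median log2 fold of the 4 genes was 0.58 with TMM, beside -0.029 for all genes tested. The same medians were 0.0075 and -0.60 with library size alone.

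**Figure D1:**
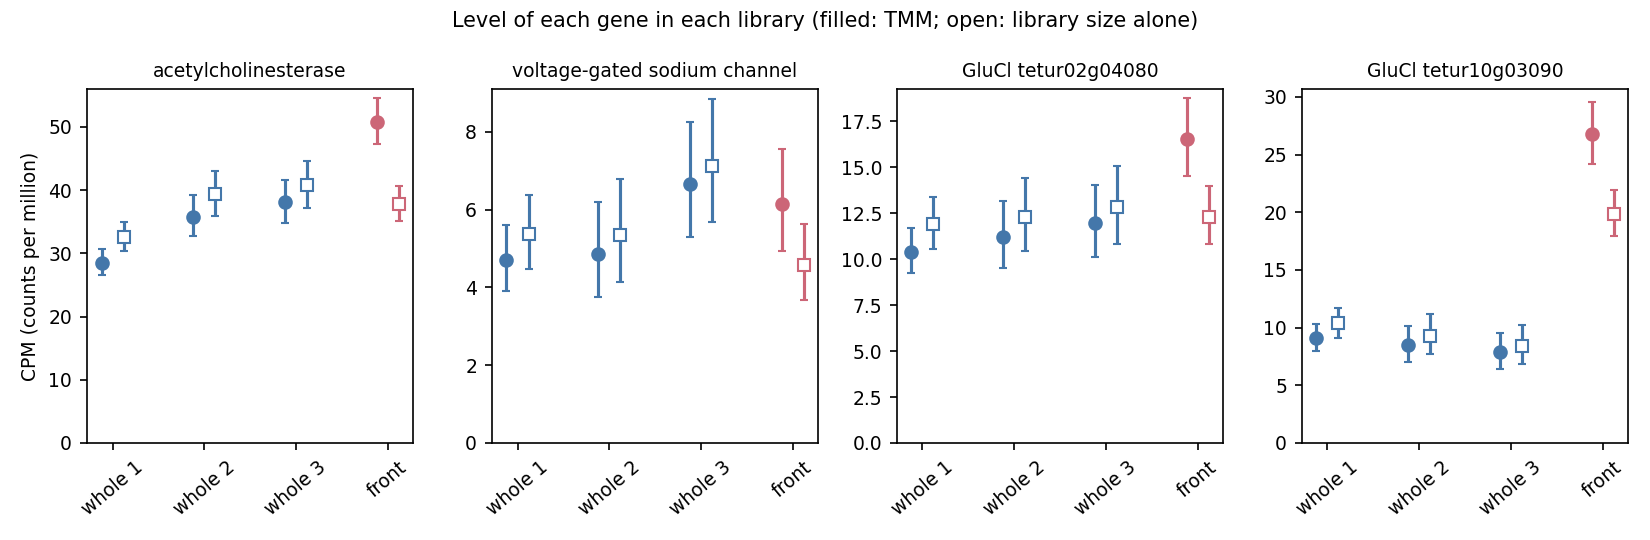
Level of each of the 4 genes in CPM (vertical axes, each starting at 0) in the 3 whole-body libraries (blue, whole 1 to 3) and the proterosoma library (red, front). Filled circles use TMM-scaled library sizes and open squares library size alone, and bars are exact 95% binomial intervals for counting error. For tetur10g03090 the proterosoma lies above the whole bodies on both scales; for the acetylcholinesterase and tetur02g04080 it does so with TMM and falls among them with library size alone.

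The chloride channel tetur10g03090 gave the clearest difference of the set. It had 245, 115 and 98 reads in whole-body replicates 1, 2 and 3 and 391 reads in the proterosoma library, which make 9.07, 8.48 and 7.86 CPM against 26.7 CPM. The whole-body values kept close together and the proterosoma value stood far above all of them. The whole-body mean was 8.47 ± 0.609 CPM (SD, n = 3), and the log2 fold was 1.65 (standard error, SE, 0.13; 95% interval 1.32 to 1.97; edgeR adjusted p = 6.55e-05). The upper end of that interval is a 3.93-fold difference.

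The rise of tetur10g03090 was called under all 4 scalings tried. Scaled by library size alone, its level was 19.9 CPM in the proterosoma, against a whole-body mean of 9.36 ± 0.969 CPM (SD, n = 3). The log2 fold was then 1.07 (SE 0.16; edgeR adjusted p = 7.49e-04). Its exact binomial interval in the proterosoma, 18.0 to 22.0 CPM, did not meet the highest whole-body interval, which ended at 11.7 CPM. It moved up in the ranking of genes by count, from places 7838, 7916 and 8115 in whole-body replicates 1, 2 and 3 to place 5410 in the proterosoma library. A rank needs no scaling between libraries, although it shifts with every other gene.

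Many genes rose by more than tetur10g03090 did. Of the genes tested, 3191 had a larger fold and 76.0% a smaller one. Folds are ordered with their sign here and below, so a gene that fell counts as smaller, however large its fall. Among the 2976 tested genes with a mean log2 CPM within 1 of its own, 33.5% were called at least 2-fold higher and the median log2 fold was 0.12.

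The other chloride channel, tetur02g04080, had a smaller fold. It had 281, 152 and 149 reads in whole-body replicates 1, 2 and 3 and 242 reads in the proterosoma library, or 10.4, 11.2 and 11.9 CPM against 16.6 CPM. With TMM the proterosoma value was the highest of the 4 libraries. The whole-body mean was 11.2 ± 0.769 CPM (SD, n = 3), and the log2 fold was 0.57 (SE 0.14; 95% interval 0.22 to 0.92; edgeR adjusted p = 0.00990).

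This call on tetur02g04080 depended on the scaling and on the test. On library size alone it was at 11.9, 12.3 and 12.8 CPM in whole-body replicates 1, 2 and 3 and at 12.3 CPM in the proterosoma library, so that the proterosoma fell inside the whole-body range. The log2 fold was then 0.00040 (SE 0.14; edgeR adjusted p = 0.998). The DESeq2 Wald test gave nearly the same log2 fold as edgeR with TMM, 0.56, with a larger SE of 0.27 and an adjusted p of 0.0584. Among 3040 genes of like level, 59.1% had a smaller fold.

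The acetylcholinesterase tetur19g00850 had more reads than any other of the 4 genes in each library. It had 771, 486 and 475 reads in whole-body replicates 1, 2 and 3 and 743 reads in the proterosoma library, or 28.6, 35.8 and 38.1 CPM against 50.8 CPM. With TMM the proterosoma value lay above every whole-body value, and replicate 1 was the lowest of these. The whole-body mean was 34.2 ± 4.98 CPM (SD, n = 3), and the log2 fold was 0.59 (SE 0.16; 95% interval 0.19 to 0.98; edgeR adjusted p = 0.0159).

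The acetylcholinesterase was not called with library size alone. It was then at 32.6, 39.3 and 40.8 CPM in whole-body replicates 1, 2 and 3 and at 37.8 CPM in the proterosoma library, inside the whole-body range. The log2 fold was 0.015 (SE 0.15; edgeR adjusted p = 0.929). Its rank by count moved from places 5308, 4647 and 4492 in whole-body replicates 1, 2 and 3 to place 3495 in the proterosoma library, above its place in each whole body.

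Whole-body libraries differed more in the acetylcholinesterase and the sodium channel than in most genes of like level. For the acetylcholinesterase the coefficient of variation over the 3 whole bodies was 14.6%, where the median of 4012 genes of like level was 5.41% and 92.1% of these genes varied less. The sodium channel had the largest coefficient of the 4 genes, 20.0%, where the median of 2456 genes of like level was 11.7% and 79.3% of these varied less. With TMM the variation of both chloride channels was near that of genes of like level. It was 6.88% for tetur02g04080 and 7.19% for tetur10g03090, beside medians of 8.11% and 8.46%. On library size alone the whole-body means were 12.3 ± 0.465 CPM for tetur02g04080 and 9.36 ± 0.969 CPM for tetur10g03090 (SD, n = 3). Variation of genes of like level was not compared on that scale.

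The sodium channel tetur34g00970 had the fewest reads of the 4 genes. It had 127, 66 and 83 reads in whole-body replicates 1, 2 and 3 and 90 reads in the proterosoma library, or 4.70, 4.87 and 6.65 CPM against 6.16 CPM. The proterosoma value lay inside the whole-body range, under replicate 3 and over the others. The whole-body mean was 5.41 ± 1.08 CPM (SD, n = 3), and the log2 fold was 0.21 (SE 0.26; edgeR adjusted p = 0.482).

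The data leave a wide range for the sodium channel. The 95% interval of its log2 fold ran from -0.43 to 0.84, that is from 0.741-fold to 1.80-fold, so the log2 fold of 1.65 of tetur10g03090 lay outside it and that of the acetylcholinesterase, 0.59, did not. The sign turned with library size alone: the proterosoma level, 4.58 CPM, was then below each of the 3 whole-body values, whose mean was 5.95 ± 1.03 CPM (SD, n = 3). Its rank was place 8869 in the proterosoma library and places 8953, 8867 and 8425 in whole-body replicates 1, 2 and 3, so the ranks overlapped.

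With TMM, 3 of the 4 genes lay above all 3 whole-body values in the proterosoma library, as did 46.9% of all genes tested. On library size alone 1 of the 4 did, as did 36.1% of all genes tested, 1 lay below them, as did 58.3%, and 2 lay within the range. In a bulk sample, fewer cells of a type and less RNA per cell cannot be told apart, and the share of nervous tissue in either kind of sample was not measured.

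**Figure D2:**
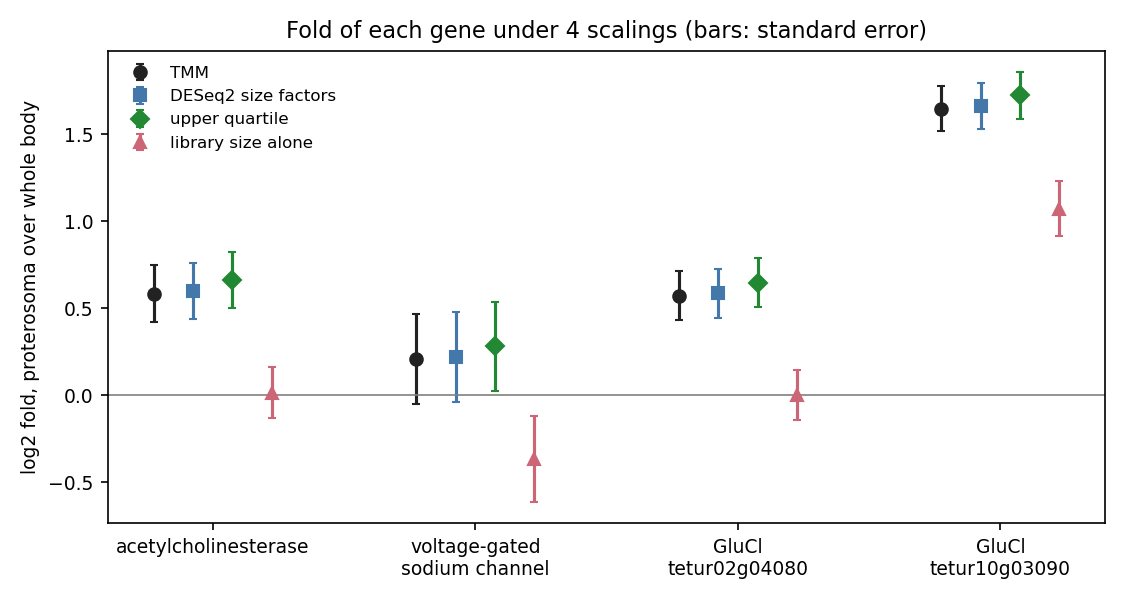
Log2 fold of proterosoma over whole body (vertical axis) for the 4 genes (horizontal axis) under 4 scalings of the libraries in edgeR, with bars for 1 standard error. TMM, DESeq2 size factors and upper quartile scaling lie close together for each gene, and library size alone lies lower for all 4, with the sodium channel at -0.36.

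A change of scaling shifts the log2 folds of all genes by nearly the same amount, so the distance of a gene from the median gene is nearly fixed by construction and says nothing of stability. Relative to the median log2 fold of all genes tested, with TMM, the acetylcholinesterase stood at 0.61, tetur02g04080 at 0.60, the sodium channel at 0.24 and tetur10g03090 at 1.68. In the order of folds of all genes tested with TMM, 54.8% had a smaller fold than the sodium channel, 61.5% than tetur02g04080 and 61.7% than the acetylcholinesterase. Among the 2456 genes of like level to the sodium channel, 48.2% had a smaller fold and the median log2 fold was 0.33, above its own. For the acetylcholinesterase, 71.8% of 4012 genes of like level had a smaller fold, and their median log2 fold was -0.26.

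**Figure D3:**
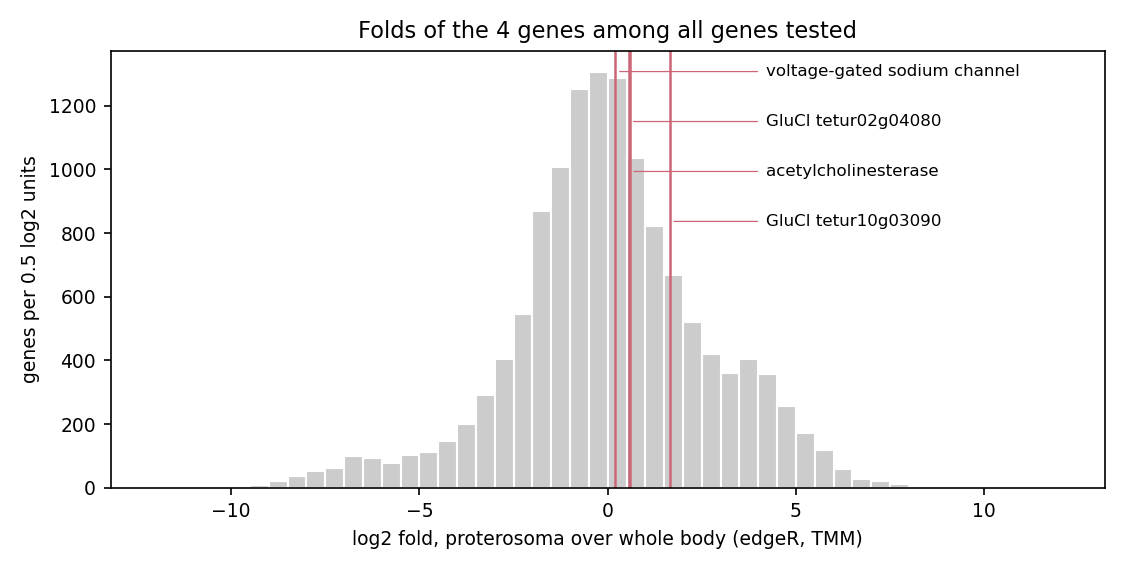
Number of genes (vertical axis, per 0.5 log2 units) by log2 fold of proterosoma over whole body with TMM (horizontal axis) for the 13278 genes tested, with red lines at the 4 nervous-system genes. The sodium channel at 0.21, tetur02g04080 at 0.57 and the acetylcholinesterase at 0.59 lie near the peak of all genes, and tetur10g03090 at 1.65 lies on its upper slope.

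Ratios between the genes inside a library need no scaling between libraries, and gene length cancels when the same ratio is compared across libraries. All 6 pairs of the 4 genes were compared. With 1 proterosoma and 3 whole-body libraries, a two-sided exact permutation test cannot go below p = 0.25, so no pair could pass a threshold of 0.05.

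Within the chloride channel pair the order of the counts turned over. There were 1.15, 1.32 and 1.52 reads of tetur02g04080 for each read of tetur10g03090 in whole-body replicates 1, 2 and 3, and 0.619 in the proterosoma library. In each whole body tetur02g04080 had the more reads, and in the proterosoma tetur10g03090 did. The exact binomial interval of the proterosoma ratio, 0.525 to 0.728, covers counting error only and did not meet any whole-body interval, the lowest of which began at 0.963. The log2 ratio changed by -1.09, beside an SD of 0.20 over the 3 whole bodies (exact permutation p = 0.25, 0.375 adjusted over the 6 pairs).

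The other genes also had fewer reads in the proterosoma for each read of tetur10g03090. For each of its reads there were 3.15, 4.23 and 4.85 acetylcholinesterase reads in whole-body replicates 1, 2 and 3 and 1.90 in the proterosoma library, a log2 change of -1.08 beside a whole-body SD of 0.32. Sodium channel reads were 0.518, 0.574 and 0.847 for each tetur10g03090 read in whole-body replicates 1, 2 and 3 and 0.230 in the proterosoma library, a log2 change of -1.46 beside a whole-body SD of 0.37. Both proterosoma ratios lay below all 3 whole-body ratios (exact permutation p = 0.25 each, 0.375 adjusted over the 6 pairs).

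The ratio of the acetylcholinesterase to tetur02g04080 showed no detectable difference. There were 2.74, 3.20 and 3.19 acetylcholinesterase reads for each tetur02g04080 read in whole-body replicates 1, 2 and 3 and 3.07 in the proterosoma library, inside the whole-body range. The log2 change was 0.016 beside a whole-body SD of 0.13 (exact permutation p = 1, also adjusted). The counting interval of the proterosoma ratio, 2.65 to 3.56, leaves room for moderate differences in either direction.

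Against the sodium channel, both of these genes had more reads for each of its reads in the proterosoma than in any whole body. The acetylcholinesterase had 6.07, 7.36 and 5.72 reads for each sodium channel read in whole-body replicates 1, 2 and 3 and 8.26 in the proterosoma library, a log2 change of 0.38 beside a whole-body SD of 0.19 (exact permutation p = 0.25, 0.375 adjusted). The counting interval of the proterosoma ratio ran from 6.63 to 10.4, and the highest end of a whole-body interval was 9.67. Sodium channel reads were 0.452, 0.434 and 0.557 for each tetur02g04080 read in whole-body replicates 1, 2 and 3 and 0.372 in the proterosoma library. That was a log2 change of -0.36 beside a whole-body SD of 0.19 (exact permutation p = 0.5, 0.6 adjusted). Here too the counting intervals overlapped: that of the proterosoma ratio ran from 0.289 to 0.476, and the lowest end of a whole-body interval was 0.320.

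**Figure D4:**
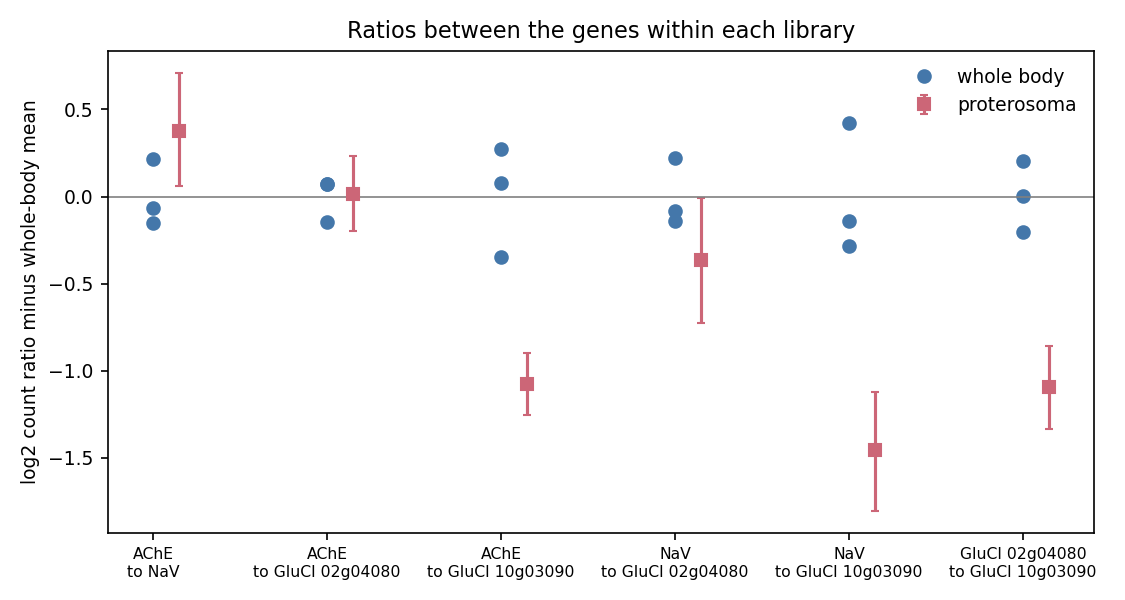
Log2 ratio of the counts of 2 genes within a library, minus the whole-body mean of that ratio (vertical axis), for the 6 pairs of genes (horizontal axis; AChE, acetylcholinesterase; NaV, voltage-gated sodium channel; GluCl, glutamate-gated chloride channel). Blue points are the 3 whole-body libraries and red squares the proterosoma library, with exact 95% binomial intervals; the 3 ratios to tetur10g03090 lie at -1.08, -1.46 and -1.09 in the proterosoma, and the ratio of the acetylcholinesterase to tetur02g04080 at 0.016.

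The profiles of the 4 genes over the 4 libraries were set side by side after each was centred on its own mean of log2 CPM. The closest pair was the acetylcholinesterase and tetur02g04080, with a root mean square difference of 0.0898 log2 units. The farthest was the sodium channel and tetur10g03090, at 0.678, and the chloride channel pair was 0.491 apart. Other genes of like level came closer still: the nearest of 3040 genes to tetur02g04080 was tetur469g00010, at 0.00731, with 209, 113 and 112 whole-body reads and 182 proterosoma reads. The nearest of 2976 genes to tetur10g03090 was tetur01g09330, at 0.0423, with 367, 185 and 147 whole-body reads and 607 proterosoma reads. The nearest genes to the acetylcholinesterase and to the sodium channel were 0.0667 and 0.0444 away.

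By their identifiers the 4 genes lie on different scaffolds, 19 for the acetylcholinesterase, 34 for the sodium channel, 2 for tetur02g04080 and 10 for tetur10g03090. Calls in both directions were found near each of them, as they were over all genes tested, of which 41.0% were called higher and 40.4% lower. Among the 10 nearest identifiers (5 on each side, an order not checked against an annotation), 3 of 6 tested genes around the acetylcholinesterase were called higher and 2 lower (edgeR adjusted p under 0.05). Around the sodium channel 4 of 8 were higher and 2 lower, around tetur02g04080 3 of 10 were higher and 7 lower, and around tetur10g03090 2 of 8 were higher and 5 lower.

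The largest of the 4 folds was that of tetur10g03090 in the authors' deposited table too, at a log2 fold of 1.63 (SE 0.26; adjusted p = 2.07e-09). For the acetylcholinesterase the authors' deposited table listed 0.56 (SE 0.24; adjusted p = 0.0306). For tetur02g04080 the value in the authors' deposited table was 0.55 (SE 0.27; adjusted p = 0.0587), and for the sodium channel it was 0.18 in the authors' deposited table (SE 0.41; adjusted p = 0.729). At an adjusted p under 0.05 the authors' deposited table thus called 2 of the 4 genes higher, against 30.7% of its 15877 genes. That share is over more genes than the 13278 that passed the filter on low counts, so it is unlike the edgeR shares given above.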

How the data were processed

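Raw counts of reads per gene were deposited by the authors. The submitters' processing notes list STAR 2.5.0b, HTSeq 0.6.0 as well as DESeq2 1.6.3. The libraries kept the strand, per the labels' protocols. How strand and multi-mapped reads were treated in counting, the build and the annotation are not stated in the labels or headers, so near-identical copies or overlapping genes could share reads. A second table deposited by the authors holds their own comparison, with a mean normalised signal, log2 fold changes, a test score and p-values per gene, per the file headers. Its header names no numerator: of its genes with an absolute log2 fold of at least 1, 100% were signed as proterosoma over whole body when set against the counts.

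Counts of all 4 libraries were fitted with edgeR 4.0.16 in R 4.3.3 (quasi-likelihood F test, TMM, edgeR's expression filter by group, body part as the only term), with 2 residual and 3.82 prior degrees of freedom, and p-values were adjusted by Benjamini-Hochberg over the 13278 genes tested. The standard error of a log2 fold is its size divided by the root of the F statistic. The fit was tested on simulated data with 200 changed genes. In the real data 5449 genes were called higher and 5363 lower, so that test cannot speak for the scaling here. Alternatives were DESeq2 1.42.0, limma-voom (limma 3.58.1), other scalings, filters and thresholds, a robust fit, and fits that left out each whole-body library. Binomial intervals are exact (Clopper-Pearson, 95%) and cover counting error only: without molecular identifiers, reads are not independent molecules. Sample columns left unused numbered 0. Besides the members, the genes named were those nearest in profile among genes within 1 log2 CPM (prior count 2), smallest difference first, and at most 2 that rose and 2 that fell. Lists of other nervous-system, muscle, yolk, gut and cuticle genes were set by product name and could not be matched to identifiers, so none was used. The members and lists were chosen with earlier results of these data known.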

Additional observations from a re-analysis of the deposited data

How the results depend on the processing

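The chloride channel tetur10g03090 kept its direction and call under every alternative run, with log2 folds of 1.01 to 1.73. With library size alone the log2 fold was 0.015 for the acetylcholinesterase, 0.00040 for tetur02g04080 and -0.36 for the sodium channel. Then 1 of the 4 genes was called higher instead of 3, against 31.2% of all genes tested instead of 41.0%. The DESeq2 Wald test gave 0.56 for tetur02g04080 (adjusted p = 0.0584) and called 2 of the 4 genes higher. It called 4819 of the 18020 genes in the count table higher, of which 2143 had no count. It was run without the filter on low counts, so that share is unlike the edgeR shares. With glmTreat, which tests against a 2-fold change, 1 of the 4 genes was called higher, beside 3730 of the 13278 genes tested. In all, 3317 genes were called lower instead of 5363, as the stricter null of glmTreat makes for fewer calls. Without each whole-body library in turn, TMM log2 folds were 0.46 to 0.65 for the acetylcholinesterase and 0.52 to 0.60 for tetur02g04080. They were 0.10 to 0.35 for the sodium channel and 1.58 to 1.71 for tetur10g03090. Omission together with library size alone, chosen after seeing the data, gave -0.085, 0.051 and 0.080 without whole-body replicates 1, 2 and 3 for the acetylcholinesterase. In the same order the log2 folds were -0.029, 0.00074 and 0.028 for tetur02g04080 and -0.44, -0.42 and -0.23 for the sodium channel. The log2 change of the ratio of the acetylcholinesterase to tetur02g04080 was -0.056 to 0.054, negative without whole-body replicate 1. Among 144 recomputed values, 124 had the direction and call of the reported value or, for counts, lay within 1.5 times of it. Ratios were compared by direction alone, and 2 of the 4 genes called instead of 3 still passed as within 1.5 times. That total therefore says little of the calls on single genes. No paired analysis was possible because there is 1 front-body library, and no replicate number in its label. The 66 to 127 reads of the sodium channel limit what can be seen of it.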
